A study of Mus musculus with 4 samples.

Results

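The genes of the Kelch-BTB family were followed in gastrocnemius, a calf muscle of mostly fast fibres, of mice with and without the transcription factor KLF15. Members were taken by symbol, as genes named Klhl or Kbtbd followed by a number, each read by its brightest transcript cluster with a single symbol. There were 46 such genes, 37 Klhl and 9 Kbtbd, among 22180 genes with a single symbol on the array. A gene was counted as measured when its mean log2 level lay above the median of all clusters, an intensity of 5.81. This held for 41 of the 46 members, 33 Klhl and 8 Kbtbd, and for 13258 genes in all.

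Each of 4 groups was read on 1 Affymetrix array. Wild-type (WT) mice received either sodium citrate vehicle or streptozotocin (STZ), and so did mice lacking KLF15 in skeletal muscle alone (KO). STZ kills pancreatic beta cells and serves to model diabetes. Vehicle or STZ, the latter at 50 mg/kg, was injected into the peritoneum on 5 days in a row, and muscle was taken 3 weeks after treatment. Whether the mice of these arrays were hyperglycaemic was not analysed here. The sources used here do not give the driver of the muscle-specific deletion, the strain, age or sex of the mice, or whether an array held 1 animal or a pool. With 1 array a group, no difference below has a replicate check, no test was run, and higher and lower describe single arrays.

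Kelch-BTB proteins are substrate adaptors of ubiquitin ligases. The BTB domain at the amino end docks on the scaffold protein cullin 3, the BACK domain follows it, and a propeller of kelch repeats holds the protein that will be tagged. Such ligases work once the ubiquitin-like protein NEDD8 has been joined to the cullin. In skeletal muscle the family is best known for KLHL40 and KLHL41, which stabilise thin-filament proteins rather than destroy them and whose loss causes nemaline myopathy, and for KLHL31, whose loss in mice causes a myopathy with excess filamin C.

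The promoters of the muscle members are shown because KLF15, the factor knocked out in KO muscle, belongs to a family that binds CACCC-type boxes, and because MEF2 factors drive many muscle genes. Sequences are the 250 bases before the transcript start in RefSeq's table of build GRCm38.p6, 5′ to 3′ on the gene's strand. RefSeq windows were matched for 38 of the 46 members, 50 windows in all. Capitals mark a MEF2 match in Klhl41, Klhl33 and Kbtbd12, and CACCC or its reverse complement in Klhl31, Klhl40 and Klhl7. Klhl33 has a second window, not shown.
Klhl31 (chr9:77636482-77636731, plus strand): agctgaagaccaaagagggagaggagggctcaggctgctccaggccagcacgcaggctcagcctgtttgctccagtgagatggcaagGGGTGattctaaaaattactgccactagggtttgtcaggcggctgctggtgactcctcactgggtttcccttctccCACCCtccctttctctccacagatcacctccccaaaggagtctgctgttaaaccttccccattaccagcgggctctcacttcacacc
Klhl40 (chr9:121777357-121777606, plus strand): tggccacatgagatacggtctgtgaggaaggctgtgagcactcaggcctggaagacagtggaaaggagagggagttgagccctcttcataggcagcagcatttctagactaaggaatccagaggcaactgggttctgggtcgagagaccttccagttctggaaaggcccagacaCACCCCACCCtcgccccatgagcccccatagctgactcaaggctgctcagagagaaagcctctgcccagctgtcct
Klhl41 (chr2:69669870-69670119, plus strand): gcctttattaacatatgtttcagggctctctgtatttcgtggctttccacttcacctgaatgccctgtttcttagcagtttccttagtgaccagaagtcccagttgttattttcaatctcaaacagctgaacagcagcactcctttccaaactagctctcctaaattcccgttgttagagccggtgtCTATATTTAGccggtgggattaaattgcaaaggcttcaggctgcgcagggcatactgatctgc
Klhl33 (chr14:50897484-50897733, minus strand): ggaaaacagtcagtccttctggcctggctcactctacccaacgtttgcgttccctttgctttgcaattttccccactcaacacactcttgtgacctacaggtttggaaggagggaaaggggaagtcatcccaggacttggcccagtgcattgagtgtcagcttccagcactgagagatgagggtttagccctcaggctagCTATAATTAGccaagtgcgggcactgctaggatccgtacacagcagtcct
Kbtbd12 (chr6:88627430-88627679, minus strand): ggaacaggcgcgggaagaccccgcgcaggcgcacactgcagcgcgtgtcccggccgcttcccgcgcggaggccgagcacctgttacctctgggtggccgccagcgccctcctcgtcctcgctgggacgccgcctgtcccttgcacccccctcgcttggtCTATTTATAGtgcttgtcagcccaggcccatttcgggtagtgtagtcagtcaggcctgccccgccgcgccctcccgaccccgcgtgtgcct
Klhl7 (chr5:24100340-24100589, plus strand): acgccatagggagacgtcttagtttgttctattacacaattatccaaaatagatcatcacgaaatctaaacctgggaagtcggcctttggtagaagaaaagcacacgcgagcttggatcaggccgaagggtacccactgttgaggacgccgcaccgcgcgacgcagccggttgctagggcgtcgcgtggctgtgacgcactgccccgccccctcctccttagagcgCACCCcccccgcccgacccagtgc

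The MEF2 motif, searched on both strands, was found in 3 of 50 member windows (6%) against 2.92% of all 32851 windows of the table. Those 3 windows belong to Klhl41, where the match begins 63 bases before the transcript start, Klhl33 (50 bases) and Kbtbd12 (91 bases). No MEF2 match lies in the windows of Klhl31 and Klhl40. The letters CACCC occur in 38 member windows (76%) against 52% of all windows. CACCC is absent from the Klhl41 window and occurs 2 times each in those of Klhl31, Klhl40 and Kbtbd12, and it can overlap other GC-rich motifs. The E-box letters CANNTG occur in 56% of member windows against 66.2% of all, and the forkhead letters GTAAACA in 0 of 50 against 3.17%. Searches covered both strands, and a match describes letters in the window only.

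Members with and without CACCC were set side by side. In KO vehicle against WT vehicle, 27 measured members with CACCC had a median log2 difference of 0.055 and 8 without it a median of -0.040. Under STZ the medians of KO against WT were 0.023 with CACCC and -0.051 without. Over all measured genes with a window, the corresponding medians were -0.0025 and -0.0075 under vehicle and -0.041 and -0.065 under STZ. These are medians of single arrays, and whether the letters bear on the differences was not tested.

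The arrays carried the labels' tissue and genotype. All 10 skeletal muscle fibre markers were measured, with summed intensities from 45803 to 47140. Klf15 read 50.5 with vehicle and 72.1 with STZ in WT, and 19.8 and 16.04 in KO, so both KO arrays lay below both WT arrays. The sources used here do not say whether its cluster lies in the deleted part. The female-specific RNA Xist was below the level filter on all 4 arrays, and the Y-linked genes Kdm5d, Uty and Eif2s3y were measured on all 4. Summed macrophage markers (8 of 8 measured) ran from 310.2 to 408.9 and fibroblast markers (8 of 8) from 3052 to 3595. Those of satellite cells (5 of 6 measured) ran from 87.9 to 93.4 and of Schwann cells (3 of 6) from 181.9 to 230.4. Sums take every matched marker, so these last hold Calcr and S100b, which were below the level filter. Genes above level percentile 75, an intensity of 19.5, had a median log2 difference of -0.11 in KO STZ against WT STZ, from -0.063 to 0.035 in the other pairwise comparisons.

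Levels below are deposited intensities, and differences are on the scale log2(intensity + 3.69), an offset equal to percentile 25 of the whole table. Differences of dim genes are understated on this scale. A call means at least 1.5-fold, 0.58 on the log2 scale. A cluster's brightness depends on its probes as well as on its RNA, so intensities are compared between arrays and not between genes.

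Across the family the arrays were close. The log2 range over the 4 arrays, highest minus lowest, had a median of 0.24 over the 41 measured members, from 0.081 in Klhl15 to 0.74 in Klhl2. The same median was 0.29 over all measured genes. That range reached 1.5-fold in 3 members (7.32%), Klhl2, Klhl7 and Klhl38, and in 8.02% of all genes. The same 3 members were those called in any of the 4 pairwise comparisons, as were 6.18% of all genes. KO STZ was the lowest array for 14 of 41 members, close to the 33.5% of all genes for which it was lowest. KO vehicle was the highest array for 15 of 41 members, and for 25.1% of all genes.

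**Figure D1:**
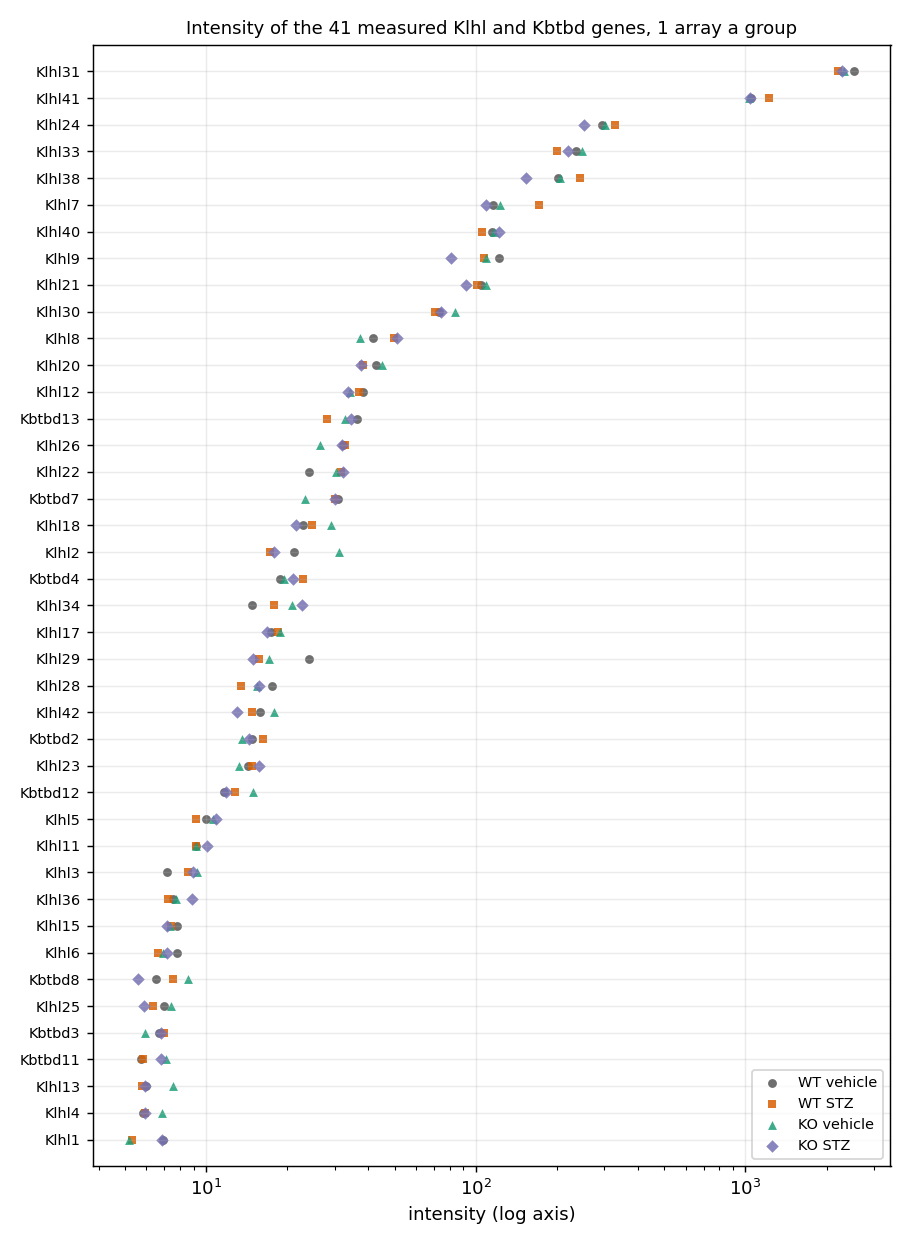
Deposited intensity (log axis) of the 41 measured Klhl and Kbtbd genes on the 4 arrays, 1 point per array and no error bars because each group has 1 array, ordered by mean log2 level. The 4 points of most genes lie close together. Klhl7 stands out to the right in WT STZ (171.0), Klhl38 to the left in KO STZ (153.9) and Klhl2 to the right in KO vehicle (31.2).

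The muscle-rich members differed little between arrays. Klhl31 read 2532 with vehicle and 2195 with STZ in WT, and 2322 and 2280 in KO. WT STZ was its lowest array and WT vehicle its highest, and both KO arrays lay between them. Its log2 difference was -0.21 for STZ in WT, -0.027 for STZ in KO, -0.12 for KO under vehicle and 0.054 for KO under STZ. Over 8 processing alternatives the value for STZ in KO ran from -0.046 to 0.050, and that for KO under STZ from 0.019 to 0.26.

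Klhl41, formerly sarcosin, read 1048 with vehicle and 1222 with STZ in WT, and 1031 and 1039 in KO. Only WT STZ stood apart, above the other 3 arrays, which were close to each other. The log2 difference was 0.22 for STZ in WT and 0.011 for STZ in KO. It was -0.23 for KO against WT under STZ, shrinking to as little as -0.040 among the alternatives. Under vehicle the value was -0.023, with either sign among the alternatives.

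Klhl40, which protects nebulin and leiomodin 3 from turnover, read 115.0 with vehicle and 105.6 with STZ in WT, and 117.3 and 122.2 in KO. Both KO arrays lay above both WT arrays, by log2 differences of 0.028 under vehicle and 0.20 under STZ. STZ went with -0.12 in WT and 0.057 in KO. Kbtbd13, another nemaline myopathy gene, read 36.4, 28.1, 32.8 and 34.3 in the same order of arrays. WT STZ was lowest for Kbtbd13 too, at -0.33 against WT vehicle, while KO STZ stood 0.26 above WT STZ. None of these 4 genes reached 1.5-fold in any of the 4 pairwise comparisons, whose calls among all genes are given with each comparison below.

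The genes of the proteins these adaptors act on were read from a list of 20 thin-filament and nemaline myopathy genes, all measured. Neb, the giant thin-filament ruler nebulin, read 4304 with vehicle and 3810 with STZ in WT, and 4453 and 4194 in KO. Lmod3, leiomodin 3, which nucleates actin filaments, read 284.5, 242.8, 299.1 and 257.4 in that order. Both were lower with STZ in both genotypes, Neb at -0.18 in WT and -0.086 in KO and Lmod3 at -0.23 and -0.21. Nrap, a nebulin-related scaffold that KLHL41 binds, read 1606, 1653, 1766 and 1684, with KO above WT by 0.14 under vehicle and 0.027 under STZ, the latter with either sign among the alternatives.

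Flnc encodes filamin C, the protein that accumulates when KLHL31 is missing, and the arrays read its RNA and not the protein. Flnc stood above WT in both KO arrays. It read 471.1 with vehicle and 415.9 with STZ in WT, and 613.9 and 549.8 in KO. KO exceeded WT by 0.38 on the log2 scale with vehicle and by 0.40 with STZ, short of 1.5-fold, while Klhl31 itself was at -0.12 and 0.054. Over the alternatives the Flnc values ran from 0.37 to 0.45 under vehicle and from 0.36 to 0.60 under STZ, where 1 of 8 passed 1.5-fold. Flnc was not alone in the list, since Xirp1 stood at 0.37 and 0.39. Of the 20 genes, 11 lay above 0 and 9 below under vehicle, and 13 above and 7 below under STZ.

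In that list of 20 genes, 0 were called in KO under vehicle, beside 1.36% of all genes. Under STZ 1 (5%), Tpm3, was called lower in KO, beside 3.65% of all genes called, 2.81% lower. Tpm3, the tropomyosin of slow fibres, stood at -0.52 and -0.81, and Tnnt1, the slow troponin T, at -0.41 and -0.39. The slow fibre markers, a list that itself holds Tpm3 and Tnnt1, were mostly lower in KO. Of these 8 markers, 6 lay below 0 and 2 above under vehicle, and 8 lay below under STZ. Their summed intensity over 8 of 8 measured genes was 1610 with vehicle and 1667 with STZ in WT, and 1318 and 1068 in KO, and their part in the result was not tested. Fewer cells of a type and less RNA per cell cannot be told apart in whole muscle. Lmod2, a second leiomodin, stood at 0.57 in KO under vehicle and 0.13 under STZ. The list's median was 0.026 under vehicle and 0.067 under STZ, and -0.050 and -0.077 for STZ in WT and KO. With quantile normalization or loess the median for KO under STZ was 0.22 and 0.25.

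**Figure D2:**
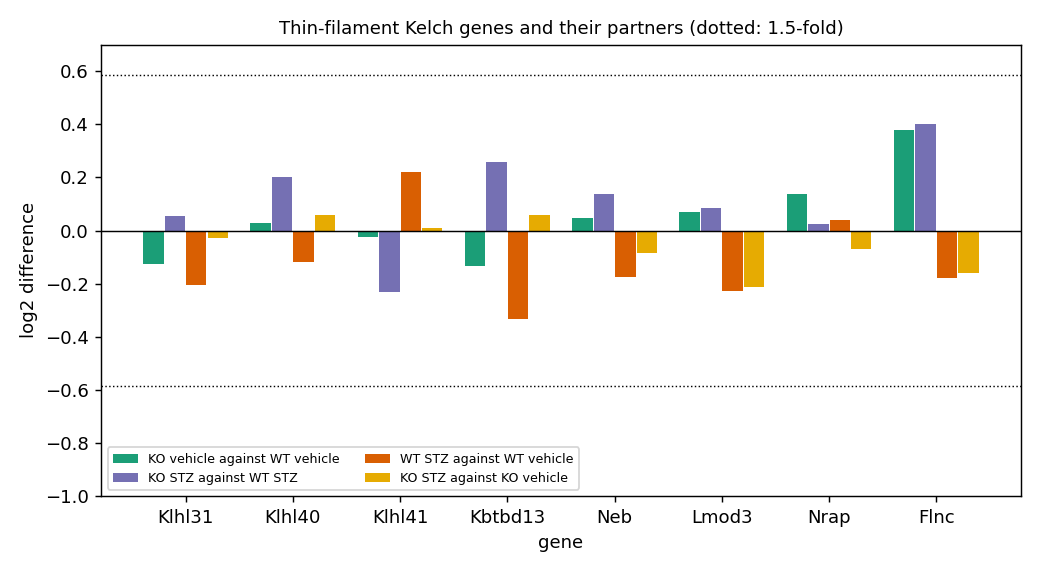
Log2 differences of Klhl31, Klhl40, Klhl41 and Kbtbd13 and of the thin-filament and partner genes Neb, Lmod3, Nrap and Flnc in the 4 pairwise comparisons, 1 array a group, without error bars. No bar reaches the dotted lines at 1.5-fold. Flnc is above 0 in both KO comparisons (0.38 and 0.40).

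Loss of KLF15 with vehicle was the first comparison, KO vehicle against WT vehicle. No member was called, 0 of 41 in either direction, where 1.36% of all 13258 genes were called, 0.581% higher and 0.777% lower. The median of the 41 members was 0.033, with 24 above 0 and 17 below, beside a median of -0.0039 and 50.77% below 0 over all genes. Of the members, 29 (70.7%) lay within 0.2 of 0, as did 70.2% of all genes.

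The values farthest from 0 were those of Klhl2, Klhl29, Klhl34 and Kbtbd7. Klhl2, also called Mayven, an actin-binding adaptor that with KLHL3 targets WNK kinases, read 21.2 in WT vehicle and 31.2 in KO vehicle, a difference of 0.49. Klhl34, an X-linked member, read 14.8 and 20.9, a difference of 0.41. On the lower side were Klhl29, at 24.1 and 17.1 with a difference of -0.42, and Kbtbd7, an adaptor for the Rac activator TIAM1, at 30.8 and 23.3 with -0.35. Tiam1 itself stood at -0.050. Klhl18 (0.30) and Klhl22 (0.29), whose protein acts on the mTORC1 regulator DEPDC5, lay above 0, and Depdc5 stood at 0.13.

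Loss of KLF15 under STZ was the second comparison, KO STZ against WT STZ. Of 41 members, 2 were called lower (4.88%), Klhl38 and Klhl7, and 0 higher, where 3.65% of all genes were called, 2.81% (372) lower and 0.845% (112) higher. Quantile normalization changed the split over all genes to 243 lower and 156 higher. Both called members are among the 20 above level percentile 75, where the array-wide median was -0.11. The median of the 41 members was -0.0021, with 20 above 0 and 21 below, beside -0.048 and 58.1% below 0 over all genes. This median changed sign among the alternatives, from -0.037 to 0.028. Within 0.2 of 0 lay 31 members (75.6%), and 59.6% of all genes.

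Klhl38 was read by 2 clusters. The brighter read 202.6 with vehicle and 243.9 with STZ in WT, and 206.0 and 153.9 in KO. The dimmer read 18.2, 25.1, 18.03 and 16.4 in the same order. In both clusters WT STZ was the highest array and KO STZ the lowest, while the vehicle arrays of the genotypes were alike. The KO STZ intensity of the brighter cluster was 63.1% of WT STZ, with a log2 difference of -0.65, and the dimmer cluster stood at -0.51. Under vehicle those differences were 0.024 and -0.0079.

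Klhl7, an adaptor whose human gene is mutated in a form of retinitis pigmentosa, also had WT STZ highest and KO STZ lowest. It read 115.8 with vehicle and 171.0 with STZ in WT, and 122.5 and 109.3 in KO. WT STZ stood alone, above the other 3 arrays, which lay close together. KO STZ was at 63.9% of WT STZ, with a log2 difference of -0.63, against 0.079 under vehicle. The calls of Klhl38 and Klhl7 each held in 5 of 8 alternatives and both ended under quantile normalization and loess, where no value was closer to 0 than -0.47. Those counts include the level filters, which cannot move a gene's difference, and for Klhl7, with 1 cluster, the mean of all clusters. Among alternatives able to move it, the Klhl7 call held with offset 1 and median centring only. That of Klhl38 held with offsets 1 and 16 and median centring. With the mean of both clusters Klhl38 stood at -0.58, just short of a call, and with offset 16 Klhl7 also stood at -0.58.

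Adipocyte and slow fibre markers were lower here too, but not those of every cell type. Macrophage markers had a median of 0.19, with 5 above 0 and 3 below. Of 8 fibroblast markers 4 lay above 0 and 4 below, with 2 called higher. Of 7 adipocyte markers 6 were matched and 5 measured, and their summed intensity is over the 6. It was 1093 with vehicle and 1363 with STZ in WT, and 1108 and 882.1 in KO. KO STZ was thus lowest, as for Klhl38 and Klhl7. Most of that sum came from Fabp4, at 933.6 and 1194 in WT and 912.0 and 763.2 in KO, the only one of the 5 that was highest in WT STZ, while the other 4 were highest in KO vehicle. All 5 lay below 0 in KO STZ against WT STZ, 2 of them past 1.5-fold, and Lep was below the level filter. The 8 slow fibre markers also lay below 0 there, 3 past 1.5-fold, with the sums given above. Their part in the result was not tested.

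Next in this comparison came Klhl9, an adaptor tied to Aurora B in mitosis and to a human distal myopathy. It read 122.4 with vehicle and 107.2 with STZ in WT, and 109.3 and 81.3 in KO. KO lay below WT, at -0.16 under vehicle and -0.38 under STZ. Klhl24, an adaptor for intermediate filament proteins whose human gene is mutated in skin fragility and cardiomyopathy, read 293.8, 328.1, 300.6 and 251.1 in that order. Its difference was 0.033 under vehicle and -0.38 under STZ. Among the alternatives the values under STZ shrank to -0.23 in Klhl9 and -0.19 in Klhl24. The highest value belonged to Klhl34, at 0.29.

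STZ in WT muscle was the third comparison. No member was called, 0 of 41, where 1.72% of all genes were called, 1.27% (169) higher and 0.445% (59) lower, or 122 and 69 after quantile normalization. The median over the members was -0.025, with 19 above 0 and 22 below, beside 0.0075 and 48.25% below 0 over all genes. Klhl7 came closest to a call at 0.55, an intensity 148% of vehicle. Klhl29 was next at -0.51, from 24.1 to 15.7. Klhl22 stood at 0.35, from 24.1 to 31.7, and Klhl28 at -0.31, from 17.6 to 13.5.

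STZ in KO muscle was the fourth comparison. Of 41 members, 1 was called lower (2.44%), Klhl2, and 0 higher, where 1.1% of all genes were called, 0.656% lower and 0.445% higher. The median was -0.027, with 18 above 0 and 23 below, beside -0.032 and 56.97% below 0 over all genes. Klhl2 read 31.2 in KO vehicle and 17.8 in KO STZ, an intensity 57.1% of vehicle, with a log2 difference of -0.70. The KO vehicle array was the one apart for Klhl2, since WT vehicle read 21.2 and WT STZ 17.2. The call held in 7 of 8 alternatives and ended with offset 16, where the value was -0.48. Those 7 include the level filters and the mean of all clusters, which cannot move a gene with 1 cluster such as Klhl2. Of the 5 measured adipocyte markers, 4 were also highest in KO vehicle, and all 5 lay below 0 in KO STZ against KO vehicle, 2 past 1.5-fold, with a median of -0.58. Endothelial markers, 8 of 8 measured, had summed intensities of 679.4 with vehicle and 686.0 with STZ in WT, and 801.2 and 742.7 in KO. Of the 8, 3 were highest in KO vehicle, 3 in WT STZ and 2 in KO STZ. The part of these markers in the result was not tested. Klhl38 and Klhl9 followed at -0.41 each and Kbtbd8, read close to the level filter, at -0.40. Klhl8 stood highest at 0.42, from 37.3 to 51.2.

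**Figure D3:**
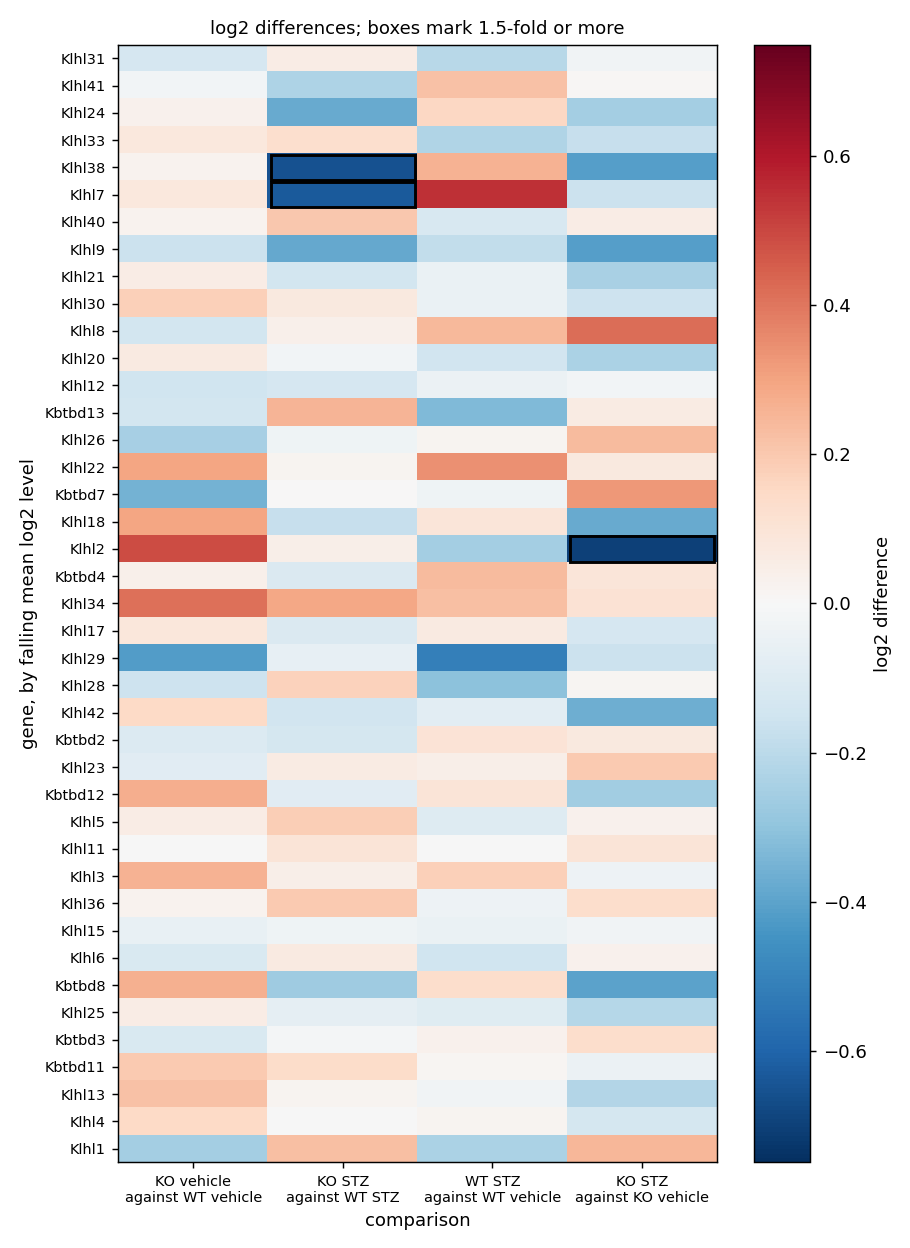
Log2 difference (colour) of the 41 measured members in the 4 pairwise comparisons, ordered by mean log2 level, 1 array a group. Boxes mark the 3 values of 1.5-fold or more, which are Klhl38 (-0.65) and Klhl7 (-0.63) in KO STZ against WT STZ and Klhl2 (-0.70) in KO STZ against KO vehicle.

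**Figure D4:**
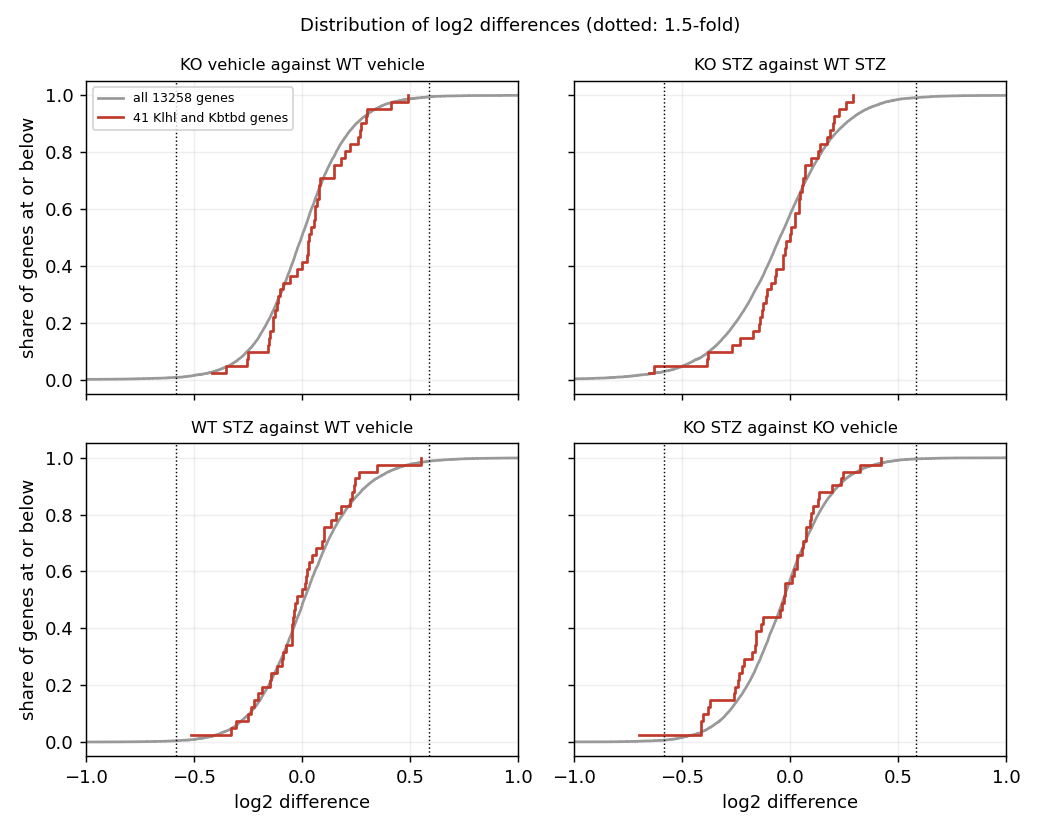
Share of genes at or below each log2 difference in the 4 pairwise comparisons, for the 41 members (red) and all 13258 measured genes (grey), 1 array a group. In KO STZ against WT STZ, 75.6% of members and 59.6% of all genes lie within 0.2 of 0. There the member median (-0.0021) is nearer 0 than that of all genes (-0.048). In the other comparisons the shares within 0.2 are nearer each other.

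The last comparison set the STZ effect in KO against that in WT. Of 41 members, 2 were called lower (4.88%), Klhl7 at -0.71 and Klhl38 at -0.68, and 0 higher, where 5.67% of all genes were called, 3.91% (519) lower and 1.76% (233) higher, or 369 and 290 after quantile normalization. It reuses all 4 arrays, including the WT STZ and KO STZ arrays that set the Klhl7 and Klhl38 calls above. Klhl1 (0.48), a neuronal member at the edge of the level filter, and Kbtbd13 (0.39) had the highest values, and Kbtbd8 (-0.54) and Klhl18 (-0.47) came next on the lower side. The median over the members was -0.089 beside -0.048 over all genes, and it lay between -0.13 and -0.0020 over the alternatives.

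Comparisons that have no array in common were set side by side. KO against WT had the same sign under vehicle and under STZ in 19 of 41 members (46.3%), 11 above 0 and 8 below, and in 56.3% of all genes. Klhl34 had the largest value shared by both, at 0.41 and 0.29, and read 14.8 with vehicle and 17.9 with STZ in WT, and 20.9 and 22.8 in KO. Both KO arrays thus lay above both WT arrays for Klhl34. Klhl9 (-0.16 and -0.38) and Klhl12 (-0.15 and -0.12), which modifies the secretory coat protein SEC31, were lower in both. Kbtbd2, the adaptor that removes the p85 subunit of PI3-kinase and so bears on insulin action, stood at -0.11 and -0.13, and Pik3r1, the gene of p85, at 0.0044 and -0.30.

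STZ had the same sign in WT and KO in 22 of 41 members (53.7%) and 51.1% of all genes. Klhl2 (-0.25 in WT, -0.70 in KO) and Klhl9 (-0.19 and -0.41) were lower with STZ in both, as was Klhl33 (-0.22 and -0.17). Klhl8 was higher in both, at 0.24 and 0.42. Klhl33 is a bright member, which read 234.8 with vehicle and 200.4 with STZ in WT, and 247.9 and 219.3 in KO. These genes were chosen after their values were seen.

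The remaining measured members gave no call. Klhl21 and Klhl30, both bright, had log2 ranges of 0.24 and 0.23 over the 4 arrays. The second Klhl30 cluster, much dimmer, stood at -0.23 and -0.21 in KO under vehicle and STZ, opposite in sign to the brighter cluster at 0.18 and 0.071. Klhl20, which acts on the death-associated kinase DAPK1 and on PML, stood at 0.066 and -0.023 in the KO comparisons. Klhl3, the partner of WNK kinases in the kidney, read between 7.15 and 9.28. Klhl42, an adaptor for the microtubule-severing katanin, stood at -0.37 for STZ in KO. Klhl6, known from B cells, read between 6.66 and 7.78, and none of the 7 matched B and T lymphocyte markers passed the level filter.

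Klhl1 was the dimmest measured member, with intensities from 5.19 to 6.91, and Klhl14 the brightest that was not measured, from 4.70 to 6.25. The 5 members that did not pass were Klhl14, Klhl35, Klhl10, Klhl32 and Kbtbd6. Klhl10, needed in spermatids, read between 4.10 and 6.73. In the RefSeq gene order Klhl10 lies beside Klhl11, Kbtbd7 beside Kbtbd6 and Klhl6 beside Klhl24.

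The ligase core that these adaptors share was read from a list of 24 genes for cullin 3, NEDD8 conjugation and its removal, of which 22 were measured. In KO 18 of 22 lay below 0 under each treatment, or 81.82%, with medians of -0.12 under vehicle and -0.31 under STZ. Over all genes 50.77% and 58.1% lay below 0, and over genes above level percentile 75, which hold 19 of the 22, 52.84% and 68.64% with medians of -0.014 and -0.11. Quantile normalization and loess left 15 of 22 below 0 under vehicle and 16 and 17 under STZ, where the median shrank to -0.14 and -0.16. None was called under vehicle, and 2 (9.09%) were called lower under STZ, Nae1 and Uba3, beside 2.81% of all genes. Among genes above level percentile 75, 294 of 7212 were called lower there. Quantile normalization and loess each left 1 of the 22 called. Cul3, the scaffold, read 1096 with vehicle and 1042 with STZ in WT, and 926.1 and 815.9 in KO. Both KO arrays lay below both WT arrays, at -0.24 and -0.35, values that shrank to -0.16 and -0.14 at the least among the alternatives.

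Nae1 and Uba3 encode the subunits of the enzyme that activates NEDD8. Nae1 read 61.8 with vehicle and 93.8 with STZ in WT, and 54.4 and 52.1 in KO. Uba3 read 111.3, 165.4, 116.6 and 106.4 in the same order. For both, as for Klhl7, WT STZ stood above the other 3 arrays, by 0.57 and 0.56 against WT vehicle. KO STZ against WT STZ was -0.81 for Nae1, called in 8 of 8 alternatives, and -0.62 for Uba3, called in 5 of 8. Both counts include the level filters, which cannot move a gene's difference. These likenesses of Klhl7 with Nae1 and Uba3 rest on the same 4 arrays and are a description.

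**Figure D5:**
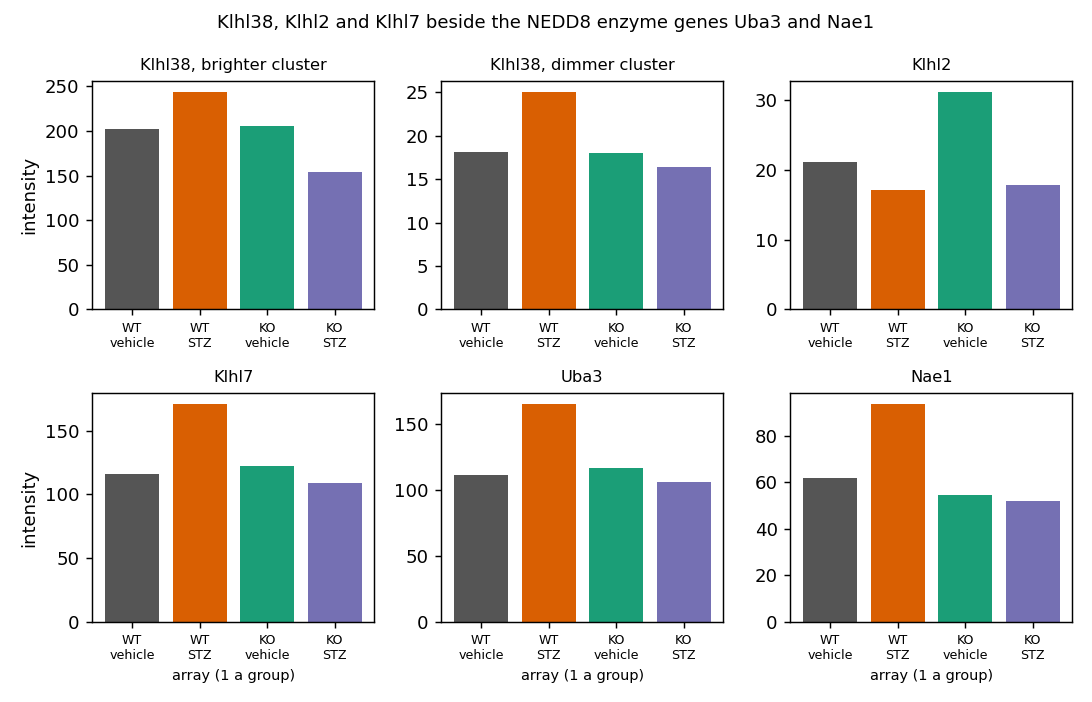
Deposited intensity on each of the 4 arrays, 1 bar an array and no error bars, for both clusters of Klhl38, for Klhl2 and Klhl7, and for the NEDD8 enzyme genes Uba3 and Nae1. WT STZ is the highest bar for every gene shown except Klhl2, whose highest is KO vehicle (31.2).

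Shorter lists complete the pathway. Of the Kelch-BTB genes with other names, Keap1, the sensor that restrains the antioxidant factor NRF2, read 111.7 with vehicle and 105.8 with STZ in WT, and 105.4 and 117.4 in KO. Ivns1abp stood at -0.33 and Enc1 at -0.29 in KO under STZ, and none of the 3 measured genes was called anywhere. The 17 BTB adaptors without kelch repeats also gave no call, beside 1.36% and 3.65% of all genes in KO under vehicle and STZ. Their medians there were -0.098 and -0.16, with 12 and 14 of 17 below 0, or 70.59% and 82.35%. Over all genes 50.77% and 58.1% lay below 0, and over genes above level percentile 75 52.84% and 68.64%. In those comparisons Rhobtb3 stood at -0.41 and -0.33, the lowest under vehicle, and Tnfaip1 at -0.11 and -0.50, the lowest under STZ. Abtb1 stood at -0.30 and -0.39, and Kctd10, the highest in both, at 0.30 and 0.33.

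Genes of proteins that other Kelch-BTB ligases act on numbered 23 measured of 24. Pml, a target of KLHL20, was called higher in KO under STZ at 0.73 and stood at 0.53 under vehicle. The call held in 6 of 7 alternatives, which include a level filter that cannot move the difference. Pml read 16.3 with vehicle and 10.8 with STZ in WT, and 25.1 and 20.2 in KO, so both KO arrays lay above both WT arrays. Katna1, the katanin subunit that KLHL42 removes, was called higher with STZ in KO at 1.05. It read 34.1 with vehicle and 38.6 with STZ in WT, and 22.5 and 50.5 in KO, so KO vehicle was its lowest array, at -0.53 against WT vehicle, and KO STZ its highest, at 0.36 against WT STZ. The other genes of this list were not called in a pairwise comparison. Pml and Katna1 are thus each 1 of 23 (4.35%) in their comparison. Over all genes 3.65% were called in KO STZ against WT STZ and 1.1% in KO STZ against KO vehicle. Of 10 measured myogenic and FOXO factors none was called, and Foxo1 stood at 0.42 under vehicle and 0.56 under STZ in KO. Over the alternatives its values ran from 0.037 to 0.44 under vehicle. Under STZ they ran from 0.30 to 0.68, where 3 of 8 passed 1.5-fold.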

How the data were processed

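The deposited table holds 1 linear intensity per transcript cluster and array, for 41345 clusters on 4 arrays. Per the labels' protocols, total RNA was column-purified and 4 ug gave biotin-labelled cRNA for Affymetrix arrays. The sources used here do not state how the authors corrected, summarised or scaled the values, or a genome build. Values became log2(intensity + 3.69). Array medians on that scale spanned 0.035, under a limit of 0.1, so no scaling was added. GEO's platform annotation named clusters, and all 46 members matched RefSeq by Entrez number with 0 symbols changed. The members, the 16 gene and marker lists and the alternatives were chosen with earlier results of these data known.

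Genes named are Klhl31, Klhl40 and Klhl41, the 8 brightest members, every member called, the edges of the level filter, members of known role, up to 4 genes per list by size, and Neb, Lmod3, Nrap, Flnc, Cul3, Keap1 and Klf15. Depth does not apply to arrays, and the number of arrays limits the precision. The 8 alternatives were offsets 1 and 16, quantile normalization, median centring, loess, the mean of all clusters, no level filter and a filter at percentile 75. The level filters change which genes are counted and cannot move a gene's own difference. The mean of all clusters can move only genes with several clusters. Promoter windows were cut to the bases before the transcript start. Proteins were not analysed here. Counting was tested on simulated data, with planted changes well past the 1.5-fold threshold and little noise. That test does not bear on values near the threshold. Python 3.11.15 with pandas 2.3.3 was used.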

Additional observations from a re-analysis of the deposited data

Results flagged for a closer look

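With 1 array a group, no sample can be called an outlier of its group. STZ effects of opposite sign in the genotypes, at least 1.5-fold apart, were found for 2 members, and this difference was not tested. Klhl7 stood at 0.55 with STZ in WT and -0.16 in KO, a difference of -0.71. Klhl38 stood at 0.26 and -0.41, a difference of -0.68, and its dimmer cluster at 0.40 and -0.11, a difference of -0.51. By the same rule 694 of all 13258 measured genes (5.23%) had such effects, against 4.88% of the members. No other array signal was left unused.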

How the results depend on the processing

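The medians of the members moved by less than 0.1 under each of 8 alternatives in all 5 comparisons. In KO STZ against WT STZ, the count of 2 called members became 1 with offset 16 (Klhl38) or the mean of all clusters (Klhl7) and 0 with quantile normalization or loess. In KO STZ against KO vehicle, the count of 1 (Klhl2) became 0 with offset 16. For the difference between STZ effects, the count of 2 became 4 with offset 1 (Kbtbd8 and Klhl1 added), 0 with quantile normalization and 1 with loess (Klhl7). In KO vehicle against WT vehicle and in WT STZ against WT vehicle the count was 0 in every alternative. A larger offset damps dim genes by construction, and the cause of the other changes was not tested. For 64 genes, which include all 41 measured members, 179 differences under the alternatives moved by over 0.1, 2256 did not, and no called value changed sign. Those 2256 include every value under the level filters, which cannot move a gene's difference. They also include values under the mean of all clusters for genes with 1 cluster. The 2256 thus overstate how stable the differences are. No paired analysis was possible because each group has 1 array, and leaving out a replicate was not possible for the same reason. Brightness over background limits the dimmest measured members, Klhl1, Klhl4, Klhl13, Kbtbd11, Kbtbd3, Klhl25 and Kbtbd8.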
